A study of Mus musculus with 50 samples.

Results

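The genes examined here were 51 lineage genes of the cells that lie between the fibres of a skeletal muscle. They comprised 12 endothelial, 6 mural, 10 fibroblast, 4 Schwann cell, 13 immune and 6 fat genes. A CpG was taken as belonging to one of them where the deposited table assigned it to the promoter or the body of the gene by its Ensembl identifier. This gave 671 CpGs in 39 of the 51 genes, out of 205304 CpGs and 13722 genes, and these CpGs lay in 162 of 51038 clusters, which are runs of CpGs at most 100 bp apart. The other 12 genes had no CpG in the table, namely Cdh5, Tek, Col1a1, Col1a2, Dcn, Thy1, Sox10, S100b, Ptprc, Spi1, Cd3e and Adipoq.

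Reduced representation bisulfite sequencing (RRBS) gave the methylation of CpGs in whole soleus, a slow calf muscle, from 12-week-old male and female mice on a C57BL/6 background. Every mouse carried 2 floxed alleles of Dnmt3a, which encodes a de novo DNA methyltransferase, with LoxP sites around exon 19. The wild-type (WT) mice had no further transgene, whereas the knockout mice (mD3AKO, KO in the plots) also carried Cre under the promoter of muscle creatine kinase, a promoter that is switched on late in muscle differentiation. Muscles came from sham-run mice at rest, or from mice 10, 30 or 60 min past the end of a 30 min treadmill run, in 5, 5, 5 and 6 WT and 5, 5, 7 and 6 mD3AKO mice. By this design endothelial, mural, connective tissue, nerve, immune, fat and satellite cells were expected to keep DNMT3A. In a bulk muscle the share of DNA that each cell type contributes and the methylation within that cell type cannot be told apart.

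Small vessels, pericytes, fibroblasts, Schwann cells, resident leukocytes and adipocytes contribute a large part of the nuclei of a muscle. Each of these lineages is set up by transcription factors such as ERG, EGR2, TAL1, RUNX1 or PPARG and is recognised by surface and structural proteins such as PECAM1, CSPG4, PDGFRA or CSF1R. Promoters of developmental factors often lie in CpG islands, which are as a rule unmethylated in every cell type whether or not the gene is expressed, while promoters and enhancers poor in CpGs tend to lose methylation in the lineage that uses them and to stay methylated elsewhere. Of the CpGs of the members, 372 lay in introns, 103 in coding exons, 97 in untranslated exons, 33 in exons of noncoding transcripts and 66 outside the annotated gene, and 450 lay in a CpG island.

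The level of a cluster is the share of its calls that were methylated. A measured cluster is a few CpGs close to sites at which MspI cuts, and the sequences below show the clusters of 4 members in the orientation of the gene (GRCm38), with the measured CpGs in capitals. Of the called clusters, that of Lyl1 is shown (chr8:84699149-84699271, 5 measured CpGs), and the clusters of Cspg4 (chr9:56896881-56896964, 2 measured CpGs), Pecam1 (chr11:106659500-106659662, 4 measured CpGs) and Erbb3 (chr10:128584722-128584879, 3 measured CpGs) had the lowest or second lowest genotype p of their lineages. They contrast with the first 250 bases of a RefSeq promoter entry of Egr2 (GRCm38.p6, chr10:67537316-67537565), an island in which 5 of the 16 whole CpGs were measured. The last base of this stretch, at position -304 from the nearest start in GENCODE M21, is the cytosine of a further measured CpG that the window cuts. The CpGs that the deposited table assigns to the Egr2 promoter lie outside this stretch, at 67535964 to 67536409.
Lyl1 upstream: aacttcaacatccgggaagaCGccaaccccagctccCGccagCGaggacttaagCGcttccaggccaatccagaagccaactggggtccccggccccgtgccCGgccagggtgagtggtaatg
Cspg4 intron: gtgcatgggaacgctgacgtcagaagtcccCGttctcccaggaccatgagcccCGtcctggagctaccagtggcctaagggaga
Pecam1 intron: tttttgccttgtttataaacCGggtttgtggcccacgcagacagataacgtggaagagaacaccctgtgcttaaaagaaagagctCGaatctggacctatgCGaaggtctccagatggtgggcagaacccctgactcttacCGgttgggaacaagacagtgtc
Erbb3 intron: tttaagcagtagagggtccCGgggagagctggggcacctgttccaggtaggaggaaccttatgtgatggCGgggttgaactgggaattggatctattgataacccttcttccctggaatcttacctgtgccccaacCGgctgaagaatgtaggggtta
Egr2 promoter: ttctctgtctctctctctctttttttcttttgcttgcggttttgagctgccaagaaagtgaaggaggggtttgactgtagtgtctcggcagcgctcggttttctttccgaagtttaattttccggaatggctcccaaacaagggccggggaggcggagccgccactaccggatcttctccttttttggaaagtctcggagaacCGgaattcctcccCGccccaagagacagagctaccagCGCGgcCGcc
The first 4 windows held 8, 4, 6 and 3 CpGs in all, so the measured CpGs were the whole of the Erbb3 window and only part of the others.

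The samples had 12819404 to 41285655 methylation calls, of which 40060 to 122501 lay in the clusters of the members. The lowest coverage of a CpG of these genes in any sample was 8 reads, and the median over CpGs of the mean coverage was 89.4. RRBS does not show the deletion itself, so the genotype labels were checked at 1124 to 1395 clusters outside these genes that differed between genotypes when the sample in question was left out. On a scale with the WT mean at 0 and the mD3AKO mean at 1, WT samples lay between -0.138 and 0.504 and mD3AKO samples between 0.572 and 1.25. The ranges did not overlap, but WT 10 min sample 35, at 0.504, lay just past the midpoint on the mD3AKO side. With this sample left out of a quasi-binomial model over all clusters, the 3 clusters called below stayed past the threshold, with adjusted p-values of 0.000128 for Tcf4, 0.00501 for Tagln and 0.0495 for Lyl1, against 9.26e-05, 0.00628 and 0.0462 with it. Over the 44 fits that each left out 1 sample, however, Lyl1 was past the threshold in only 16.

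The first comparison asked where the lineage genes differed between mD3AKO and WT muscle, over the 4 time points. Methylation fell at a cluster of Tcf4, Tagln and Lyl1 and rose at none. These were 3 of 162 clusters (edgeR quasi-likelihood test, Benjamini-Hochberg adjusted p under 0.05 over all clusters), where 1.09% of all clusters were called lower and 0.00588% higher in mD3AKO. The share of called members, 1.85%, is that of so few clusters that it is given as a description. At an unadjusted p under 0.05, 20 of the 162 clusters (12.3%) were counted, all 20 of them lower, against 9.56% of all clusters, and 8 of the 20 lay in Tcf4. Without Tcf4 the count was 12 of 146 clusters (8.22%). A larger part of the members than of all clusters had intermediate WT levels, with 61.1% against 45.0% between 10 and 80%. In that range 3 of 99 member clusters (3.03%) were called, against 345 of 22944 clusters overall (1.504%).

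Levels lay below WT in 108 of the 162 clusters (66.7%), against 62.4% of all clusters. The median difference between mD3AKO and WT was -0.971 percentage points over the member clusters and -0.455 over all clusters, with single clusters between -20.5 and 9.89 points. By lineage the median was -3.61 points in mural genes, -1.23 in fibroblast genes, -0.596 in immune genes, -0.428 in Schwann cell genes, -0.236 in fat genes and -0.176 in endothelial genes. The fibroblast value rested on Tcf4, whose 16 clusters were 16 of the 31 of that lineage. Without Tcf4 the median over all members was -0.725.

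**Figure D1:**
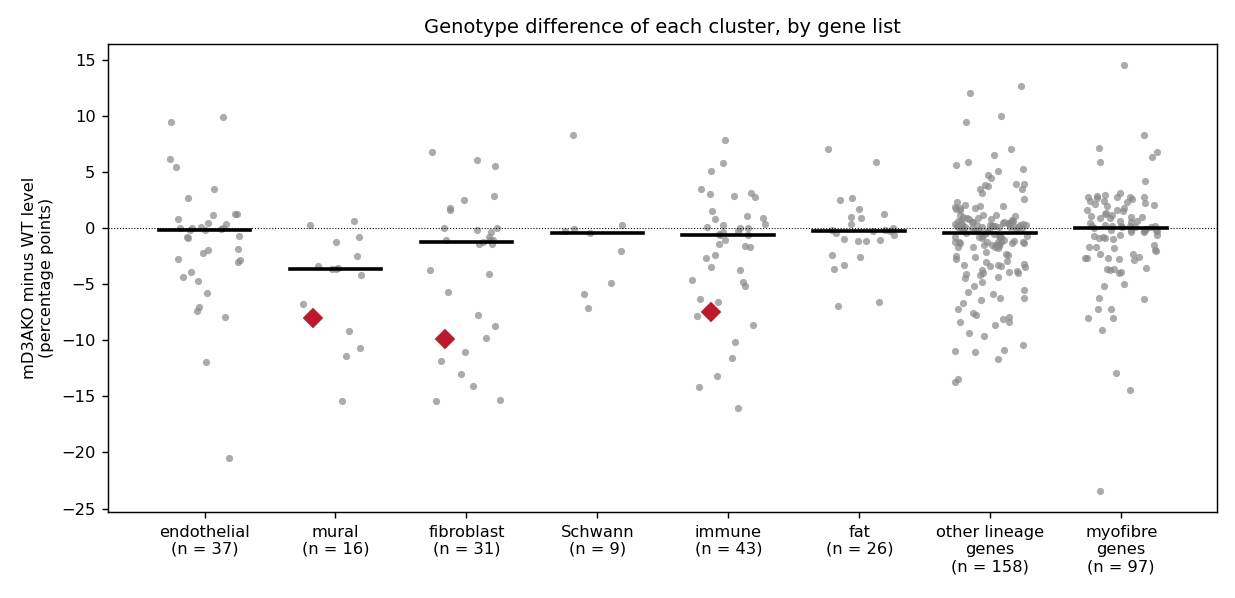
Difference in methylation level between mD3AKO and WT (percentage points, y axis) of each cluster, by lineage of the member genes and for the comparison lists of other lineage genes and myofibre genes. Points are clusters, bars are medians and red diamonds are the 3 clusters past the threshold, which lie in the mural, fibroblast and immune lists.

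Tcf4 (ENSMUSG00000053477) encodes a basic helix-loop-helix E-protein that pairs with lineage-specific factors. It stands among the fibroblast genes of the list used here, but the factor called TCF4 that marks connective tissue fibroblasts of muscle is encoded by Tcf7l2, which was not a member. The called cluster lay in an intron (chromosome 18, 69666702 to 69666861, 5 CpGs). In the 21 WT samples its level was 3.14% at the lowest, 11.9% at the median and 27.3% at the highest, and in the 23 mD3AKO samples 0%, 2.60% and 12.2%. All 23 mD3AKO samples lay below the WT mean and 16 lay below the lowest WT sample, although the groups overlapped. The mean fell from 13.4% ± 6.04 (SD, n = 21) to 3.53% ± 3.61 (SD, n = 23), a log2 odds ratio of -2.59 ± 0.413 (SE) with an adjusted p of 0.000244 in edgeR's quasi-likelihood test.

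The 5 CpGs of this Tcf4 cluster did not share the loss equally. In the direction of the gene, their WT means were 5.42, 6.75, 10.8, 22.3 and 23.0%, so that the level was highest at the 3′ end. The mD3AKO means were 1.88, 6.67, 1.28, 0.624 and 7.07%. The second CpG was thus at nearly the same level in both genotypes, while the fourth CpG, at 22.3% ± 17.5 (SD, n = 21) in WT, was close to unmethylated in mD3AKO at 0.624% ± 2.33 (SD, n = 23). At rest the cluster measured 13.4% ± 7.17 in WT (SD, n = 5) and 3.97% ± 4.71 in mD3AKO (SD, n = 5). At 30 min it measured 18.0% ± 3.02 (SD, n = 5) and 2.23% ± 4.08 (SD, n = 7), and there the genotypes did not overlap, with a lowest WT sample of 15.0% and a highest mD3AKO sample of 11.4%. This was the 1 of 162 member clusters called at 30 min (edgeR, adjusted p = 0.0268), where 0.0176% of all clusters were called.

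Over the whole of Tcf4, with the called cluster included, 13 of the 16 clusters were lower in mD3AKO and 3 were higher, with a median of -8.22 points, and the called cluster was the only one past the threshold in this test. Near the first start of the gene the level was close to 0 in both genotypes (0.961% ± 1.71 in WT and 0.173% ± 0.633 in mD3AKO). Intronic clusters further along had intermediate levels, for instance 68.8% ± 18.0 in WT and 53.4% ± 18.0 in mD3AKO at the cluster with the largest drop among fibroblast clusters of 2 or more CpGs (adjusted p = 0.242, edgeR). The largest rise among those clusters was also in Tcf4, with 16.7% ± 14.6 in WT and 22.2% ± 12.8 in mD3AKO (adjusted p = 0.629, edgeR). The clusters of 1 gene come from the same libraries and are not independent of each other. For Tcf7l2, 60 CpGs were measured in 10 clusters, of which all 10 were lower in mD3AKO (median -5.40 points) and none was called in edgeR, with 2 at an unadjusted p under 0.05 and a lowest adjusted p of 0.134.

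**Figure D2:**
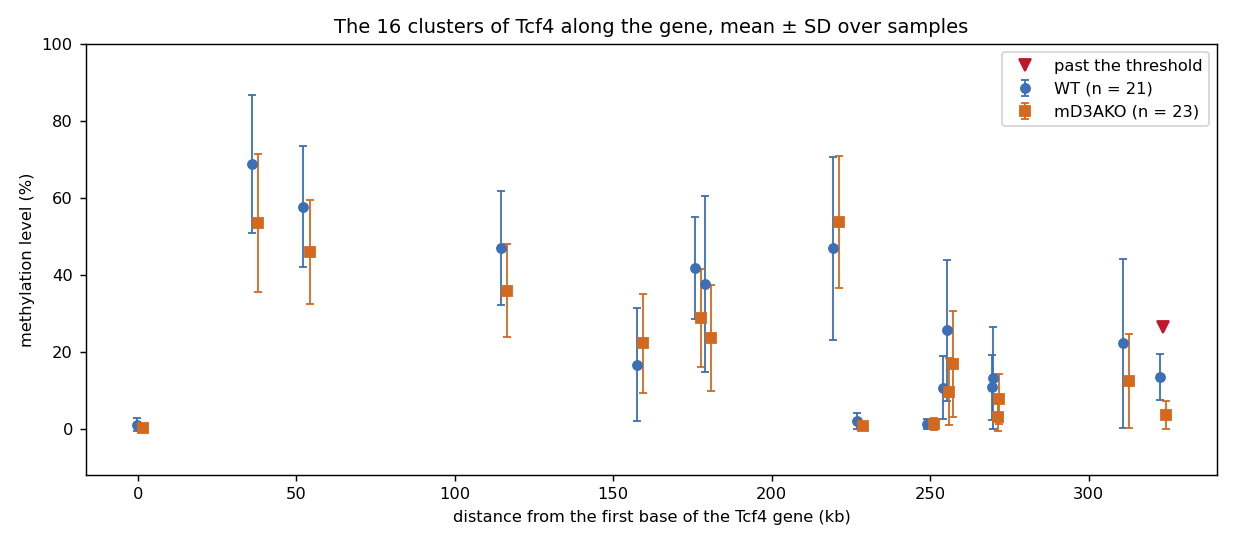
Methylation level (%, y axis) of the 16 clusters of Tcf4 against the distance from the first base of the gene (kb, x axis), as mean ± SD over 21 WT and 23 mD3AKO samples. The triangle marks the called intronic cluster, which fell from 13.4% to 3.53%.

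Tagln (ENSMUSG00000032085) encodes transgelin, an actin-binding protein of smooth muscle cells and pericytes. Its 6 CpGs lay across the transcription start (chromosome 9, 45935958 to 45936076), with 5 in the untranslated first exon and 1 upstream. In WT the level was 3.66% at the lowest, 12.5% at the median and 27.2% at the highest, and in mD3AKO 0%, 2.15% and 26.3%. The groups overlapped, since the highest mD3AKO sample, a muscle at rest, was near the highest WT sample, yet 21 of 23 mD3AKO samples lay below the WT mean and 14 below the lowest WT sample. The mean fell from 12.9% ± 6.33 (SD, n = 21) to 4.85% ± 6.27 (SD, n = 23), with a log2 odds ratio of -2.29 ± 0.445 (SE) and an adjusted p of 0.00267 (edgeR). All 6 CpGs were lower, by 0.812 to 18.2 points. The largest drop was at a CpG of the first exon, from 22.9% ± 16.8 to 4.73% ± 8.80.

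Lyl1 (ENSMUSG00000034041) encodes a helix-loop-helix factor of blood and endothelial progenitors. The table assigned 5 CpGs to its promoter (chromosome 8, 84699169 to 84699251), at positions -2288 to -2206 from its start, and all 5 of them also lay in a coding exon of the neighbouring gene Trmt1, which encodes a tRNA methyltransferase. In WT the level was 3.88% at the lowest, 11.6% at the median and 38.6% at the highest, and in mD3AKO 0%, 3.02% and 18.1%. Of the mD3AKO samples 19 of 23 lay below the WT mean and 13 below the lowest WT sample, with overlap between the groups. The mean was 13.0% ± 8.38 (SD, n = 21) and 5.50% ± 5.82 (SD, n = 23), with a log2 odds ratio of -2.07 ± 0.540 (SE) and an adjusted p of 0.0427 (edgeR), which is close to the threshold. The first 4 CpGs in capitals in the sequence shown were lower in mD3AKO, by 5.40 to 11.7 points, whereas the last was at 3.64% ± 4.84 in WT and 6.28% ± 11.1 in mD3AKO.

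**Figure D3:**
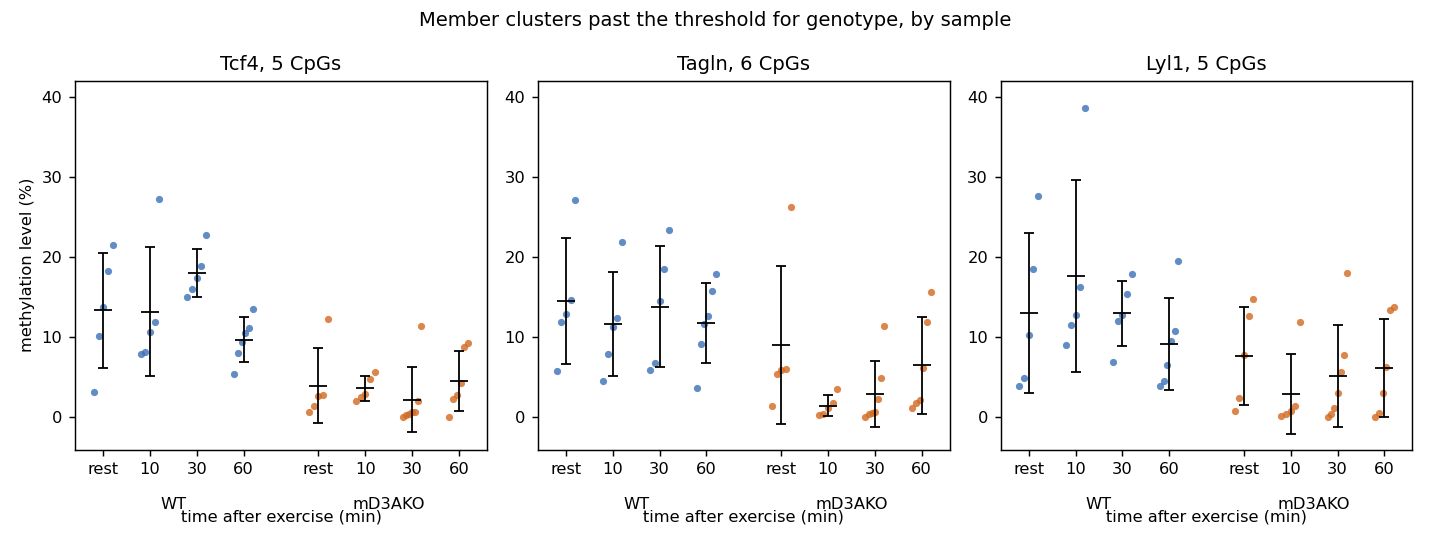
Methylation level (%, y axis) of the called clusters of Tcf4, Tagln and Lyl1 in every sample, by genotype and by time after exercise (x axis, min). Points are samples, set side by side in order of value, and bars are group means ± SD. The mD3AKO samples lie mostly under the WT samples, with single mD3AKO samples at 12.2, 26.3 and 18.1% at the top of their groups.

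**Figure D4:**
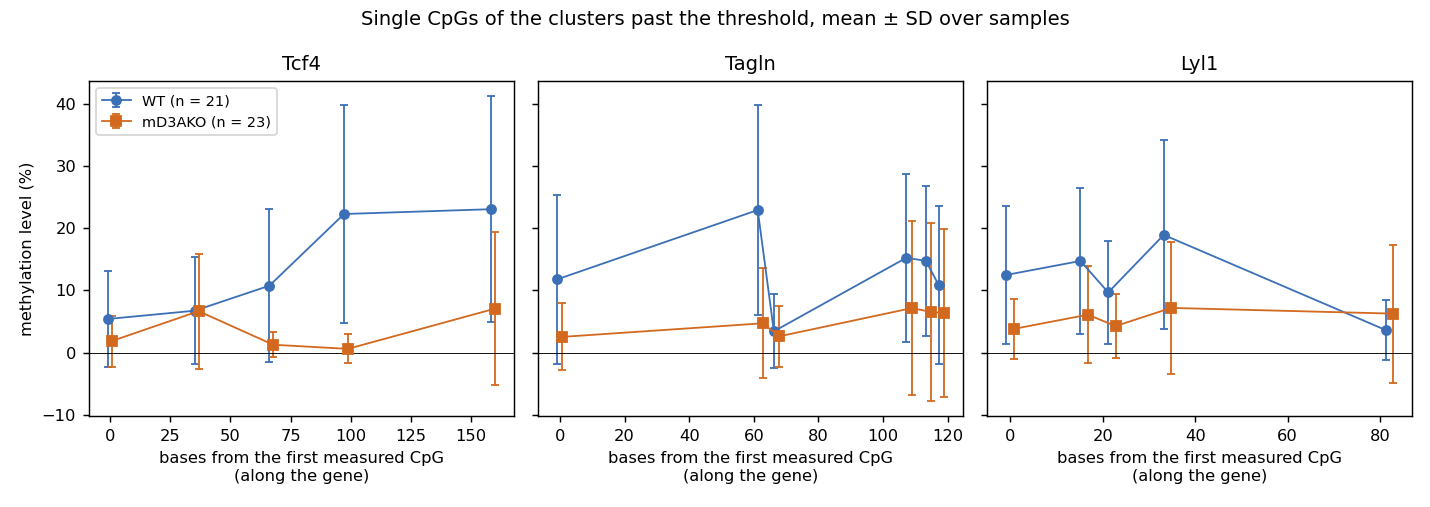
Methylation level (%, y axis) of the single CpGs of the called clusters against the distance in bases from the first measured CpG along the gene (x axis), as mean ± SD over 21 WT and 23 mD3AKO samples. The fourth Tcf4 CpG fell from 22.3% to 0.624%, while the second Tcf4 CpG differed by -0.0756 points and the last Lyl1 CpG by 2.64 points.

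Sample numbers 1 to 25 were muscles at rest or 60 min and numbers 26 to 50 muscles at 10 or 30 min, so the numbers and the time points cannot be told apart. Within numbers 1 to 25 the difference was -7.10 points at Tcf4, -5.39 at Tagln and -4.06 at Lyl1, and none of the 3 passed the threshold in edgeR on these 22 samples (adjusted p = 0.393, 0.706 and 0.900). Within numbers 26 to 50 the differences were -12.8, -10.4 and -11.1 points, with adjusted p-values of 0.0244, 0.0618 and 0.162. All 3 clusters were thus lower in mD3AKO within both sets of samples.

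Among mural genes, whose products build the wall of small vessels, 14 of 16 clusters were lower in mD3AKO. Tagln was the 1 that edgeR called (6.25%, against 1.09% of all clusters). For these 16, the likelihood ratio test, the quasi-binomial model and limma called 2, 1 and 2. Each lineage held so few clusters that its counts of calls are a description. The 9 clusters of the other mural genes described for comparison went mostly the other way, with 2 lower and a median difference of 0.189 points. None was called in edgeR's quasi-likelihood test, with 1 at an unadjusted p under 0.05. The likelihood ratio test, the quasi-binomial model and limma called 1, 0 and 1. The median WT level of these 9 clusters was 2.20%, with 6 under 10%. For the mural members it was 43.6%, with 3 of 16 under 10%. Cspg4 encodes the pericyte proteoglycan NG2. Its intronic cluster shown above (chromosome 9, 56896911 to 56896934, 2 CpGs) was highly methylated, at 76.0% at the lowest, 93.6% at the median and 100% at the highest WT sample and 46.2%, 80.6% and 97.2% in mD3AKO. This was the largest drop of the lineage, from 90.8% ± 8.44 to 75.4% ± 15.2, but it missed the threshold (adjusted p = 0.0715, edgeR) and rested on as few as 16 calls in a sample. The likelihood ratio test and limma called this cluster (adjusted p = 0.00520 and 0.0148), but the quasi-binomial model did not (0.133). All 5 Cspg4 clusters were lower in mD3AKO. The 3 clusters of Myh11 and the 2 of Pdgfrb, which encode smooth muscle myosin and a receptor of pericytes, were lower too, with medians of -3.38 and -5.82 points and none called. For Notch3, a receptor of vascular smooth muscle, the cluster with the largest rise of the lineage measured 18.8% ± 7.37 in WT and 19.4% ± 6.91 in mD3AKO.

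None of the 37 endothelial clusters was called in edgeR, against 1.09% of all clusters. At an unadjusted p under 0.05 there were 2 (5.4%), against 9.565% of all clusters. The likelihood ratio test, the quasi-binomial model and limma called 1, 1 and 0, and 22 of the 37 were lower in mD3AKO. Pecam1 encodes the adhesion molecule CD31 of endothelial junctions. Its intronic cluster shown above (chromosome 11, 106659520 to 106659642, 4 CpGs) was at 9.23% at the lowest, 28.2% at the median and 64.0% at the highest WT sample and at 2.96%, 19.3% and 47.0% in mD3AKO. The groups overlapped widely, although 20 of 23 mD3AKO samples lay below the WT mean. The mean was 31.3% ± 12.8 in WT and 19.4% ± 11.7 in mD3AKO (adjusted p = 0.122, edgeR), and all 4 CpGs were lower. The likelihood ratio test and the quasi-binomial model called this cluster (adjusted p = 0.0355 and 0.0454), but limma did not (0.0779). A second Pecam1 cluster in a coding exon had the largest rise among endothelial clusters of 2 or more CpGs, with 71.9% ± 14.5 and 75.4% ± 8.28 (adjusted p = 0.944, edgeR). Erg, a transcription factor of endothelial identity, had 9 clusters. One of its intronic CpGs was at 78.9% ± 21.6 in WT and 58.4% ± 30.0 in mD3AKO, the largest difference of any member, yet with as few as 8 calls in a sample it was far from the threshold (adjusted p = 0.444, edgeR).

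Apart from Tcf4, no fibroblast cluster had an unadjusted p under 0.05. The next lowest was a single intronic CpG of Col5a1, a fibrillar collagen gene, at 69.3% ± 24.9 in WT and 53.9% ± 24.9 in mD3AKO (adjusted p = 0.546, edgeR). Pdgfra, the receptor by which fibro-adipogenic progenitors are sorted, had 2 clusters at 0.676 and 7.93% in WT.

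Schwann cells form the myelin of the nerves that enter the muscle. None of their 9 clusters was called by any of these 4 tests and none had an unadjusted p under 0.05 in edgeR. Of all clusters, edgeR called 1.09%, and 9.565% had an unadjusted p under 0.05, so 9 clusters are too few to set against these shares. Egr2, the master regulator of myelination, was close to unmethylated throughout. Its 30 intronic CpGs between alternative starts, which include those in the sequence shown, were at 0.523% ± 0.348 in WT and 0.823% ± 0.519 in mD3AKO (adjusted p = 0.523, edgeR). This was the largest rise among clusters of 2 or more CpGs in this lineage. Erbb3, the neuregulin receptor of Schwann cells, had an island at its start at 0.731% in WT, and its intronic cluster shown above had the largest drop among such clusters, from 57.7% ± 9.62 to 51.9% ± 10.6 (adjusted p = 0.711, edgeR).

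Of the 43 immune clusters, that of Lyl1 was called in edgeR (2.33%, against 1.09% of all clusters) and 26 were lower in mD3AKO. The likelihood ratio test, the quasi-binomial model and limma called 2 each. Cd4, the co-receptor of helper T cells, had 2 CpGs in an untranslated exon at 81.3% ± 13.7 in WT and 67.2% ± 16.3 in mD3AKO (adjusted p = 0.123, edgeR). The likelihood ratio test and limma called this cluster (adjusted p = 0.0265 and 0.0461), but the quasi-binomial model did not (0.0595). Csf1r, the receptor that macrophages need for survival, had the largest drop. Its 3 promoter CpGs lay in an intron, the nearest at position -1227 from a start, and measured 43.4% at the lowest, 66.1% at the median and 99.3% at the highest WT sample, and 17.1%, 47.8% and 81.2% in mD3AKO. The genotypes overlapped, although 20 of 23 mD3AKO samples were under the mean of WT, and the adjusted p was 0.199 (edgeR). The quasi-binomial model called this cluster (adjusted p = 0.0393), but the likelihood ratio test and limma did not (0.0583 and 0.104). Runx1, a factor of blood stem cells and myeloid cells, had 12 of its 13 clusters lower in mD3AKO with a median of -3.43 points and none called. Its relative Runx3 had 6 of 9 clusters higher and the largest rise of the lineage, at 51.4% ± 23.0 and 59.3% ± 18.8 (adjusted p = 0.841, edgeR).

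No fat cluster was called of 26 by any of the 4 tests, where edgeR called 1.09% of all clusters, and 16 were lower in mD3AKO. At an unadjusted p under 0.05 there was 1 (3.85%), against 9.565% of all clusters. The cluster under 0.05 was that of Cebpa, a master factor of adipocyte differentiation. Its 35 CpGs were all in an island at 2.66% ± 1.33 in WT and 1.52% ± 0.860 in mD3AKO (adjusted p = 0.384, edgeR). Only 16 of the 35 were lower in mD3AKO. The 28 promoter CpGs were at 0.666% in WT and 0.591% in mD3AKO, while the 7 in an untranslated exon were each lower, by 2.42 to 10.5 points. A single island CpG of Ebf1, which encodes a factor of early adipocytes and B cells, had the second lowest p, at 0.426% ± 1.49 and 2.14% ± 3.82 (adjusted p = 0.524, edgeR). Among fat clusters of 2 or more CpGs, the largest drop and the largest rise were intronic and small beside their spread. They measured 13.9% ± 9.68 and 11.4% ± 7.22 at Ebf1 and 23.4% ± 25.8 and 29.3% ± 22.1 at Ebf2, a factor of brown and beige adipocytes.

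Promoters, which the deposited table takes as 3000 bp upstream to 1000 bp downstream of a start, had CpGs in 21 members. They were lowly methylated for the most part, with 13 of 21 under 5% in both genotypes. All 4 endothelial promoters were among them, from Flt4 at 1.18% ± 1.62 to Flt1 at 3.94% ± 1.98 in WT, which encode receptors of vascular endothelial growth factors. The lowest and highest WT levels were 1.23% at Notch3 and 12.9% at Tagln among mural genes, 0.190% at Col5a1 and 16.1% at Col6a1 among fibroblast genes, 0.648% at Egr2 and 7.14% at Erbb3 among Schwann cell genes, 1.12% at Tal1 and 65.7% at Csf1r among immune genes, and 0.361% at Pparg and 10.1% at Ebf2 among fat genes. Among genes of lineage factors and receptors, Tal1, Pparg, Cebpa, Ebf1, Kdr, Flt4 and Fli1 were each under 5% in both genotypes. Others were higher, with Ikzf1 at 21.2% in WT and 20.8% in mD3AKO and Lyl1 at 13.0 and 5.50%. Ebf2 was at 10.1 and 8.71%, Erbb3 at 7.14 and 7.59% and Csf1r at 65.7 and 49.7%.

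**Figure D5:**
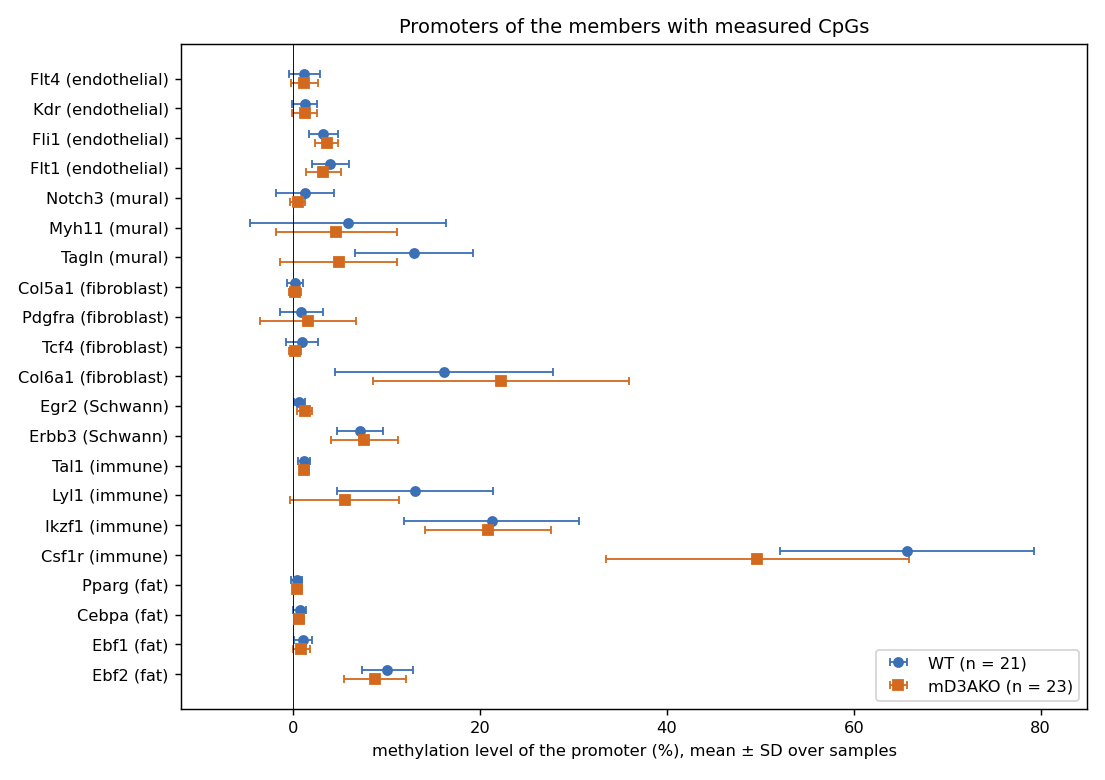
Promoter methylation level (%, x axis) of the 21 members with promoter CpGs, as mean ± SD over 21 WT and 23 mD3AKO samples, ordered by lineage. Most promoters lie under 5% in both genotypes, and Csf1r is the highest at 65.7% in WT and 49.7% in mD3AKO.

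Summed over whole promoters, 1 of 21 was called, that of Tagln (adjusted p = 0.00419, edgeR), where 0.779% of all promoters were called lower and 0.0102% higher in mD3AKO. Lyl1, whose promoter CpGs are those of its cluster, was at an adjusted p of 0.0613 here. Of the 21, 12 were lower and 9 higher. Summed over gene bodies, 1 of 38 was called, again Tagln through the 5 CpGs of its first exon (13.0% in WT and 5.38% in mD3AKO, adjusted p = 0.00215, edgeR), where 1.4% of all gene bodies were called lower and 0.0242% higher. The Tagln promoter and body share 5 of their CpGs and are not separate findings. The body of Tcf4, summed over 43 CpGs, measured 25.7% ± 6.61 in WT and 19.7% ± 6.05 in mD3AKO (adjusted p = 0.198, edgeR).

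Levels differed with the position of a cluster relative to CpG islands. The 55 clusters with every CpG in an island had a median WT level of 5.94% and a median difference of -0.233 points, with none called by edgeR and 2 at an unadjusted p under 0.05. The 100 clusters with no CpG in an island had a median WT level of 53.6% and a median difference of -1.65 points. Of these, 2 were called and 16 were at an unadjusted p under 0.05 in edgeR. Islands were marked only at the listed genes, so no share over all clusters of either kind is given. The third called cluster, that of Tagln, had 1 of its 6 CpGs in an island.

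The second comparison asked whether methylation of the lineage genes changed after exercise. No member cluster differed with time in edgeR, and 0% of all clusters were called. At an unadjusted p under 0.05 there were 6 of 162 members (3.70%), against 2.86% of all clusters. No cluster was called by the likelihood ratio test, the quasi-binomial model or limma either. The lowest p was that of 2 intronic CpGs of Runx1 (chromosome 16, 92658958 to 92659029; unadjusted p = 0.00463 and adjusted p of 1 in edgeR). In WT it measured 85.2% ± 6.94 at rest and 65.8% ± 12.9, 69.6% ± 10.5 and 70.8% ± 8.71 at 10, 30 and 60 min, and in mD3AKO 80.7% ± 5.82, 64.6% ± 5.29, 74.8% ± 10.2 and 68.2% ± 13.3. Muscles at rest had the highest mean in both genotypes, and their range overlapped that of every exercised group except mD3AKO muscles at 10 min, where the highest was 71.3% against a lowest of 73.2% at rest.

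Taken one by one, no cluster was called in edgeR at 10, 30 or 60 min against rest, in WT or in mD3AKO. In each comparison 0% of all clusters were called. At an unadjusted p under 0.05 there were 9, 6 and 6 member clusters in WT (5.56, 3.70 and 3.70%). The shares of all clusters were 4.29, 3.17 and 3.67%. In mD3AKO there were 7, 4 and 5 member clusters (4.32, 2.47 and 3.09%), against 2.89, 2.80 and 3.00% of all clusters. The median change from rest over the 162 clusters was -0.629, 0.248 and -0.112 points in WT and -0.482, -0.204 and -0.125 in mD3AKO. Over all clusters it lay between -0.269 and 0.136 points. Quasi-binomial and limma fits called none.

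The third comparison asked whether the effect of genotype depended on time. The interaction was called at no cluster in edgeR (0% of all clusters called), and no member was called by the other tests. At an unadjusted p under 0.05 there were 7 of 162 members (4.32%), against 2.74% of all clusters. The lowest p was at 12 island CpGs of Egr2 (chromosome 10, 67538611 to 67539092; unadjusted p = 0.00579 and adjusted p of 1 in edgeR), at levels of 2.45% or less in every sample. For genotype at single times, no member cluster was called in edgeR at rest, 10 min or 60 min. Of all clusters, 0.00588, 0.0137 and 0.00784% were called at these times. At an unadjusted p under 0.05 there were 8, 10 and 12 member clusters (4.94, 6.17 and 7.41%), against 4.69, 5.12 and 5.23% of all clusters. The median difference was -0.703, -0.704, -1.05 and -0.799 points at rest, 10, 30 and 60 min, and 30 of the 162 clusters (18.5%) were lower in mD3AKO at all 4 times, against 14.3% of all clusters.

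For comparison, 50 other genes of the same lineages and 30 myofibre genes, such as those of contractile proteins, were described in the same way. None of the 158 clusters of the other lineage genes was called in edgeR (17 at an unadjusted p under 0.05, and 2, 0 and 2 called by the likelihood ratio test, the quasi-binomial model and limma), with a median difference of -0.467 points and 56.3% of clusters lower. None of the 97 myofibre clusters was called either (8 at an unadjusted p under 0.05, and 1, 1 and 0 called by those tests), with a median of 0.00881 points and 49.5% lower. Over all clusters 1.09% were called and the median was -0.455 points. At an unadjusted p under 0.05 the share was 9.565% of all clusters, 10.8% of other lineage clusters and 8.25% of myofibre clusters. The members' median, -0.971 points, was the lowest of these lists, a difference that was not tested. The lists also differed in WT level, with 23.5% of member, 33.5% of other lineage and 18.6% of myofibre clusters under 10%. Among gene bodies of the comparison lists, that of Mcam, an adhesion molecule of pericytes, was the only one called, on 2 CpGs at 4.16% ± 6.48 in WT and 0.206% ± 0.663 in mD3AKO (adjusted p = 0.0465, edgeR). The same 2 CpGs tested as the promoter of Mcam were not called (adjusted p = 0.0987, edgeR).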

How the data were processed

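RRBS libraries of 50 soleus muscles were described in the labels, and 44 of them had counts in the table used here. Sample groups came from the labels. For 1 sample the title and the genotype field differ, so it was left unassigned, and no counts of it were used. Per the labels, the authors trimmed reads with Trim Galore 0.4.0 and cutadapt 1.9.1 and aligned them to mm10 (GRCm38) with Bismark 0.18.1. The deposited values are whole-number counts of methylated and unmethylated calls per CpG and sample, without normalization, and a CpG was kept by the authors where no sample had fewer than 8 reads. The authors also deposited the assignment of each CpG to a promoter, gene body and cluster, which was used as given. No molecular identifiers were used, so PCR copies count as calls and precision is overstated by coverage alone. Each muscle is 1 mouse.

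Counts were summed over clusters, promoters and gene bodies and fitted with edgeR 4.0.16, using a term for each sample and 8 group means, a common dispersion and the quasi-likelihood F test, adjusted by Benjamini-Hochberg over all features with a threshold of 0.05. The genotype effect is the mean of the 4 mD3AKO groups minus that of the 4 WT groups, as a log2 odds ratio. A level is the share of methylated calls of a sample, and means ± SD are over samples. Alternatives were the likelihood ratio test, a quasi-binomial model (pseudocount 0.5), limma 3.58.1 on log2 ratios (pseudocount 1), at least 20 calls per CpG, clusters built with gaps of 50 or 200 bp, a term for sex, samples 1 to 25 or 26 to 50 alone, a filter on mean level, and each sample left out in the quasi-binomial model, since refitting edgeR for each sample was not done. Fits were also run on simulated counts with the real depth, without clusters of very low or very high level and with as many gains as losses. These settings differ from the data, where nearly all called clusters were lower, and no result here rests on them. Exons, introns and starts came from GENCODE M21, islands were 200 bp windows whose GC fraction reached 0.5 and whose observed over expected CpG ratio reached 0.6, and sequences came from the GRCm38 genome and, for 27 of the 39 members with CpGs, a RefSeq promoter table. Sequence is not printed for Tcf4 or for untranslated exons.

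The members and the lists were chosen with earlier results of these data known. Named clusters were those called, the 2 members with the lowest genotype p per lineage, the largest drop and rise per lineage among clusters of 2 or more CpGs, the lowest p for time and interaction, and the extremes of promoter level per lineage. Other genes and clusters named for context were chosen after their values were seen.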

Additional observations from a re-analysis of the deposited data

Results flagged for a closer look

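Across the 22 clusters named in the text, 174 combinations of cluster and group with 5 to 7 samples were searched for a value standing apart from its group, and 23 (13.2%) were found, where chance gives about 1 in 20. Skewed levels near 0 or 100% were not treated separately.

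At the called Tcf4 cluster, WT 10 min sample 35 was at 27.3%, KO rest sample 24 at 12.2% and KO 30 min sample 48 at 11.4%, the others of their groups being at most 11.9, 2.84 and 1.99%. At Tagln, KO rest sample 24 was at 26.3% (others at most 6.01%), so this sample was high at both genes. At Lyl1, WT 10 min sample 42 was at 38.6% (others at most 16.3%), KO 10 min sample 26 at 11.9% (others at most 1.39%) and KO 30 min sample 33 at 18.1% (others at most 7.81%). With any one of these samples left out of the quasi-binomial model, Tcf4 and Tagln stayed past the threshold. Lyl1 depended on the sample left out, being past the threshold in 16 of all 44 such fits.

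At the Pecam1 intron, KO 10 min sample 39 was at 39.5% and KO 60 min sample 3 at 47.0%. At the Cspg4 intron, KO 30 min sample 41 was at 46.2%, and at Notch3 WT 30 min sample 32 was at 32.2%. At Cd4, WT rest sample 13 was at 99.2% and KO 10 min sample 45 at 16.0%. At the Runx1 cluster with the lowest p for time, KO 60 min sample 6 was at 41.8%, and at Col5a1 WT 60 min sample 22 was at 47.1%.

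At the single Ebf1 island CpG, WT rest sample 20 was at 6.52%, WT 30 min sample 44 at 2.42%, KO 10 min sample 39 at 1.89% and KO 30 min sample 43 at 9.16%, with most other samples at 0. At the Ebf1 intron, WT 10 min sample 47 was at 39.0% and KO 60 min sample 23 at 0%. At the upstream and the downstream cluster of Egr2, WT 30 min samples 37 and 31 were at 0.785% and 0.393%.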

How the results depend on the processing

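The 3 genotype calls among the 162 member clusters became 9 by the likelihood ratio test, 8 by the quasi-binomial model and 6 by limma. All were lower in mD3AKO, and Tcf4, Tagln and Lyl1 were called by each. Calls over all 51038 clusters rose as well, from 557 to 1414, 1296 and 895 by these tests. The member calls were 0 in samples 1 to 25 (11 WT and 11 mD3AKO) and 1 (Tcf4) in samples 26 to 50 (10 WT and 12 mD3AKO). Under the other alternatives the count was 2 to 4, including the prior without an abundance trend and the count without Tcf4, both chosen after seeing the data. Promoter calls became 3 by the likelihood ratio test and 2 by limma, and gene body calls 2 by each. For these sample subsets, alternatives, promoters and gene bodies no share over all features is given. Their counts are therefore a description and not a result about the members. Left-out samples moved the quasi-binomial count of 8 to between 4 and 9. It was 4 without WT 30 min sample 44, KO 10 min sample 28 or KO 10 min sample 34, and 5 without WT 30 min sample 31, KO rest sample 8, KO 10 min sample 26, KO 10 min sample 45 or KO 60 min sample 6. In that model Tcf4 and Tagln were past the threshold without any 1 of the 44 samples, and Lyl1 in 16 of 44 cases (adjusted p 0.0117 to 0.115). The median difference stayed between -1.11 and -0.749 points with samples left out. Time and interaction calls among the members were 0 in every test run. Of the 12 clusters with the lowest genotype p of their lineages, none changed direction under these alternatives, whereas the Runx1 cluster named for time differed by -3.41 points in samples 1 to 25 and by 2.86 in samples 26 to 50, and that of Notch3 by -1.40 and 3.01. The cause of the differences between tests was not tested.

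Depth limits the single CpGs most, where a sample had as few as 8 calls. No paired analysis was possible because each sample number occurs once.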
